A study of Homo sapiens with 60 samples.

Results

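The genes described here are 10 that serve fatty acid synthesis: ACSS2, ACLY, ACACA, FASN, SCD, ELOVL6, FADS1, FADS2, ELOVL5 and THRSP. They were found by symbol among the 60675 Ensembl genes of the deposited count table, and each symbol matched 1 gene. The set, and its contrast of Cinnamomi Cortex with Astragali Radix, were chosen by measured expression, after ACSS2 and its neighbours in the pathway were seen to be high with Cinnamomi Cortex at 500 µg/mL. Values of Cinnamomi Cortex at 500 µg/mL against the vehicle, against 20 µg/mL and against Astragali Radix at 500 µg/mL are therefore given as a description, with standard errors (SE) and no test. The same holds for Astragali Radix at 500 µg/mL against the vehicle and against 20 µg/mL, since its libraries belong to that contrast. Of the 10 genes, 8 passed the filter on low counts that left 16356 genes in all for testing. ELOVL5 and THRSP did not pass.

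Fatty acids are built from acetyl-CoA. ACLY makes acetyl-CoA in the cytosol by cleaving citrate, and ACSS2 makes it from acetate. ACACA carboxylates acetyl-CoA to malonyl-CoA, FASN joins these units into palmitate, ELOVL6 lengthens palmitate, and SCD puts the first double bond into saturated fatty acids. FADS1, FADS2 and ELOVL5 act on polyunsaturated fatty acids, and THRSP is a small protein of lipogenic tissues linked to the control of the pathway. Many of these genes are known targets of the sterol regulatory element-binding proteins, which are made by SREBF1 and SREBF2, held back by INSIG1 and also drive cholesterol synthesis.

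HT29 is an established line from a human colorectal adenocarcinoma. Cells were exposed for 24 h to water extracts of Cinnamomi Cortex (cinnamon bark), Astragali Radix (astragalus root), Cnidii Rhizoma, Rehmanniae Radix Preparata or Paeoniae Radix, or of the herbal formulae Sagunja-tang and Samul-tang, each at 500, 100 and 20 µg/mL. Control cells received the vehicle dimethyl sulfoxide, at 0.1% in the sample labels and 2% in the series' design text, and the labels do not say whether treated cells received it too. The design text adds that an extract toxic below the top dose was given at lower doses, while the labels carry the 3 nominal doses for each extract. The vehicle and the 18 groups of the first 4 extracts and the 2 formulae had 3 libraries each, and Paeoniae Radix had 1 library at each dose, so its levels are shown without a test. The labels leave the origin of the replicates unstated, and p-values below reflect only how far replicate libraries of a group scatter, and that scatter may be technical.

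The 60 libraries held 20459346 to 36253747 counts each. All 10 markers of intestinal epithelium were found in every library, with a summed level of 10352 to 13308 CPM, the counts of a gene scaled to a fixed library total. Most of that sum came from KRT8 and KRT18, at 5887 and 3397 CPM in the vehicle. CDH17, CDX1 and CDX2 were low, at 5.005, 0.851 and 5.291 CPM there. Summed markers of fibroblasts lay at 1.498 to 2.835 CPM, of leukocytes at 8.77 to 14.3 CPM and of adipocytes at 7.83 to 13.9 CPM, the last mostly from PLIN4 (6.65 to 11.9 CPM), with PLIN1 and CIDEC above 0 and LEP, LPL and CIDEA at 0 in all 60 libraries. Of the leukocyte markers, CD68 and CD14 were the highest, at 7.487 and 2.754 CPM in the vehicle. Markers of hepatocytes summed to 331.5 to 479.7 CPM, nearly all of it from SERPINA1, while ALB was at 0 in 55 libraries. The libraries were also handled as 2 sets, cut at a point in the order of their sample codes that was chosen with earlier results on the first principal component known. No label names these sets as a batch, and the cut falls between replicate 1 and replicates 2 and 3 of Cinnamomi Cortex and Astragali Radix. That component (15.7% of the variance of the 57 libraries in groups of 3) put 27 first-set libraries on 1 side and 29 second-set libraries on the other, which is no independent check of the cut. The exception was replicate 2 of Cinnamomi Cortex at 500 µg/mL, a second-set library that lay with the first set. Each group of Cinnamomi Cortex and Astragali Radix has 1 library of the first set and 2 of the second. All vehicle, Cnidii Rhizoma and Rehmanniae Radix Preparata libraries belong to the first set and all libraries of the formulae to the second, so a formula against the vehicle cannot be told apart from a difference between the sets.

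In vehicle-treated cells the enzymes differed widely in level when counts were divided by exon length (RPKM, which is CPM per kilobase of exon). SCD was highest at 346.2 ± 7.04 RPKM (SD, n = 3), above 99.6% of 16249 genes. FASN stood at 98.8 ± 2.51, ACLY at 73.4 ± 3.43 and ACACA at 39.3 ± 0.408 RPKM. These 4 core enzymes each stood above at least 94.0% of genes. ELOVL6 followed at 10.4 ± 0.509 RPKM. ACSS2 was a modest gene here, at 4.80 ± 0.386 RPKM, above 57.1% of genes. The desaturases of polyunsaturated fatty acids were low, with FADS1 at 0.502 ± 0.0195 RPKM and FADS2 at 0.0212 ± 0.0123 RPKM. No 2 neighbours in this order overlapped between their 3 vehicle libraries.

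**Figure D1:**
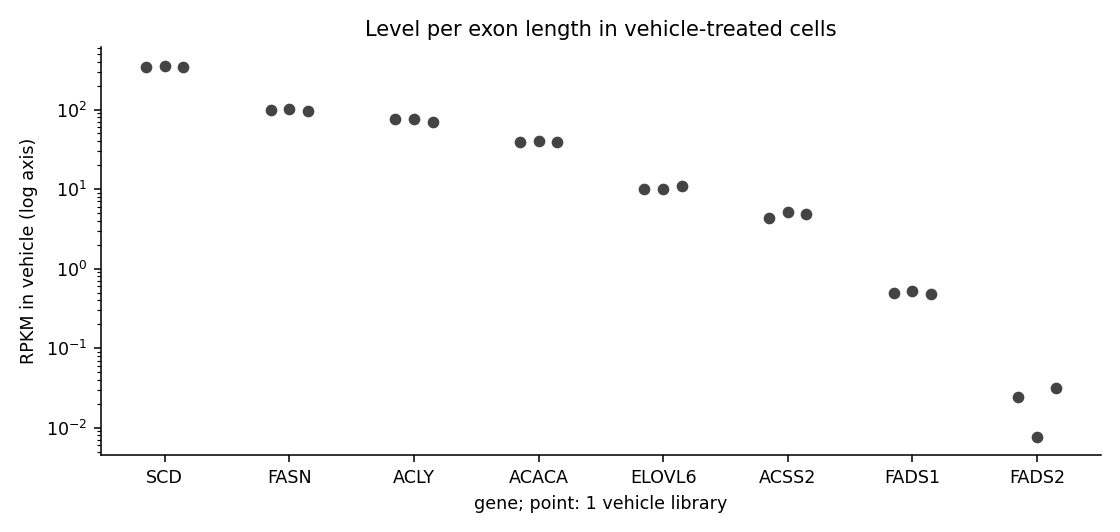
Level per exon length (RPKM, log axis) of the 8 tested genes in the 3 vehicle libraries, 1 point per library. SCD lies highest at about 346.2 RPKM and FADS2 lowest, with ACSS2 sixth at 4.80.

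The 2 genes that failed the filter were hardly detected. ELOVL5, an elongase of polyunsaturated fatty acids, had 0 to 8 counts per library and none in 45 of 60 libraries. THRSP had 0 to 3 counts and none in 36 libraries. A count of 0 allows up to 3 counts, which is 0.0828 CPM in the deepest library and 0.147 CPM in the shallowest, and covers counting error only. FADS2, with 0 to 17 counts, passed the filter but carried SEs that left its differences unreadable, such as 0.64 (SE 0.54) on the log2 scale between Cinnamomi Cortex at 500 µg/mL and the vehicle. FADS1 and FADS2 overlap on opposite strands of chromosome 11, and the strand setting of the counting is not given in the sources used here, so the share of reads given to each is uncertain.

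ACSS2 (ENSG00000131069) is a protein-coding gene on the plus strand of chromosome 20, from 34872146 to 34927962 in GRCh38 (GENCODE release 29), and one end overlaps GGT7. Its counts ran from 472 to 1744 per library. SCD (ENSG00000099194) lies on the plus strand of chromosome 10 from 100347124 to 100364834, with 36942 to 86474 counts. Since SCD had the highest correlation with ACSS2 of the members over the groups, the 250 bases before the annotated starts of both are shown, from RefSeq on GRCh38.p14, with matches to searched motifs in capitals. ACSS2 has 2 annotated starts in that table, at chr20:34874739-34874988 and chr20:34876362-34876611 for the stretches shown, and SCD has 1, at chr10:100346983-100347232. All are on the plus strand and run 5′ to 3′.
ACSS2 start 1: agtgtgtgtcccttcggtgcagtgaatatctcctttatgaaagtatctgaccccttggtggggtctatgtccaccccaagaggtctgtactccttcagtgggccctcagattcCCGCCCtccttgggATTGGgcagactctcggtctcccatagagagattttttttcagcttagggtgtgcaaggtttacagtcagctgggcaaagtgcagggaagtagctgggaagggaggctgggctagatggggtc
ACSS2 start 2: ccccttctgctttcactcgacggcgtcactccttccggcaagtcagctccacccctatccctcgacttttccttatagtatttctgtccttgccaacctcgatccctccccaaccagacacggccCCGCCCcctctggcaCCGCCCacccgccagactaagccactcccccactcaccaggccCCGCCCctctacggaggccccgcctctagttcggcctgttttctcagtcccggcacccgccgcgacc
SCD: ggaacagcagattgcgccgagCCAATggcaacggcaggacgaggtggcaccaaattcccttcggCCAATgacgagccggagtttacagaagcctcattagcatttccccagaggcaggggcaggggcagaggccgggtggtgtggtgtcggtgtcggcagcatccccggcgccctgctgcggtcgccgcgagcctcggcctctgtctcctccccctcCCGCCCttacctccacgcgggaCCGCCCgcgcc
The capitals mark CCAAT and GGGCGG or their reverse complements. Both strands of windows from 250 bases before to 50 after each start were searched for 4 motifs, and 9 of the 10 members had such windows, 14 in all. FASN had no window in the source used and was not searched. The sterol element TCACNCCAC, held by 1.13% of 35116 promoter windows of the same length, was in none of the 14. CCAAT, in 34.6% of all windows, was found once before the first ACSS2 start and at 2 places before SCD. GGGCGG, in 45.0% of all windows, occurred once before the first ACSS2 start, at 3 places before the second and at 2 before SCD. CACGTG, in 7.26% of all windows, was found for ELOVL5 only. No overlap between the motifs was present in the stretches shown. A match describes letters in these windows and is no evidence of binding, and the absence of one says nothing of sites elsewhere.

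ACSS2 stood highest with Cinnamomi Cortex at 500 µg/mL. The 3 libraries held 57.1, 53.2 and 60.3 CPM there, against 23.6, 27.7 and 26.4 CPM in the vehicle. The highest library of any other group had 33.9 CPM, so the 3 lay apart from all 57 others. The fitted log2 difference from the vehicle was 1.14 (SE 0.08), a 2.20-fold level. In RNA from whole cultures, more RNA per cell and more cells that express a gene cannot be told apart. At the lower doses of the same extract the libraries held 33.9, 28.5 and 30.8 CPM (100 µg/mL) and 31.7, 29.9 and 30.2 CPM (20 µg/mL). Every one of these 6 libraries was above the highest vehicle library, and the 2 doses overlapped. The step from 20 to 500 µg/mL was 0.89 (SE 0.08) on the log2 scale. Leaving out the library that went against its set gave 0.93 (SE 0.09) for this step and 1.19 (SE 0.09) against the vehicle.

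Between these doses of Cinnamomi Cortex SCD differed by 0.46 (SE 0.04), FASN by 0.27 (SE 0.07), ACLY by 0.26 (SE 0.04), FADS1 by 0.21 (SE 0.12), ELOVL6 by 0.15 (SE 0.04) and ACACA by 0.12 (SE 0.05). For 5 of the 8 genes the 3 libraries at 500 µg/mL were all above the 3 at 20 µg/mL, and ACACA, FADS1 and FADS2 overlapped. Over all tested genes 10.8% lay above in this way and 10.2% were called in either direction, and nothing is read from the members' count.

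With Astragali Radix ACSS2 took the opposite course. Its libraries held 31.6, 31.2 and 29.4 CPM at 20 µg/mL, 29.1, 26.2 and 25.0 CPM at 100 µg/mL and 22.0, 21.6 and 19.6 CPM at 500 µg/mL. The 3 doses did not overlap. At 500 µg/mL all 3 libraries also lay below the lowest vehicle library. Cnidii Rhizoma gave 28.3, 26.4 and 26.4 CPM at 20 µg/mL, 27.4, 26.6 and 26.2 CPM at 100 µg/mL and 22.8, 20.9 and 19.6 CPM at 500 µg/mL. Here the 2 lower doses overlapped, and the top dose lay below both and below the vehicle.

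In Rehmanniae Radix Preparata ACSS2 showed no such step, with 28.3, 23.8 and 28.9 CPM at 500 µg/mL and 29.9, 26.6 and 26.2 CPM at 20 µg/mL. Sagunja-tang gave 23.6, 23.03 and 21.6 CPM at 500 µg/mL and 26.5, 28.2 and 27.5 CPM at 20 µg/mL, without overlap. Samul-tang gave 25.7, 22.2 and 21.9 CPM at 500 µg/mL and 31.8, 29.5 and 25.2 CPM at 20 µg/mL, which overlapped through replicate 1 at 500 and replicate 3 at 20 µg/mL. The single Paeoniae Radix libraries held 24.6, 25.7 and 27.1 CPM at 500, 100 and 20 µg/mL. Ordered by mean level over the 19 groups, ACSS2 ran from 56.9 ± 3.55 CPM (SD, n = 3) with Cinnamomi Cortex at 500 µg/mL to 21.07 ± 1.296 CPM with Astragali Radix at 500 µg/mL. Of the 18 pairs of neighbours in that order, 17 overlapped, and the exception was the step down from the top group.

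**Figure D2:**
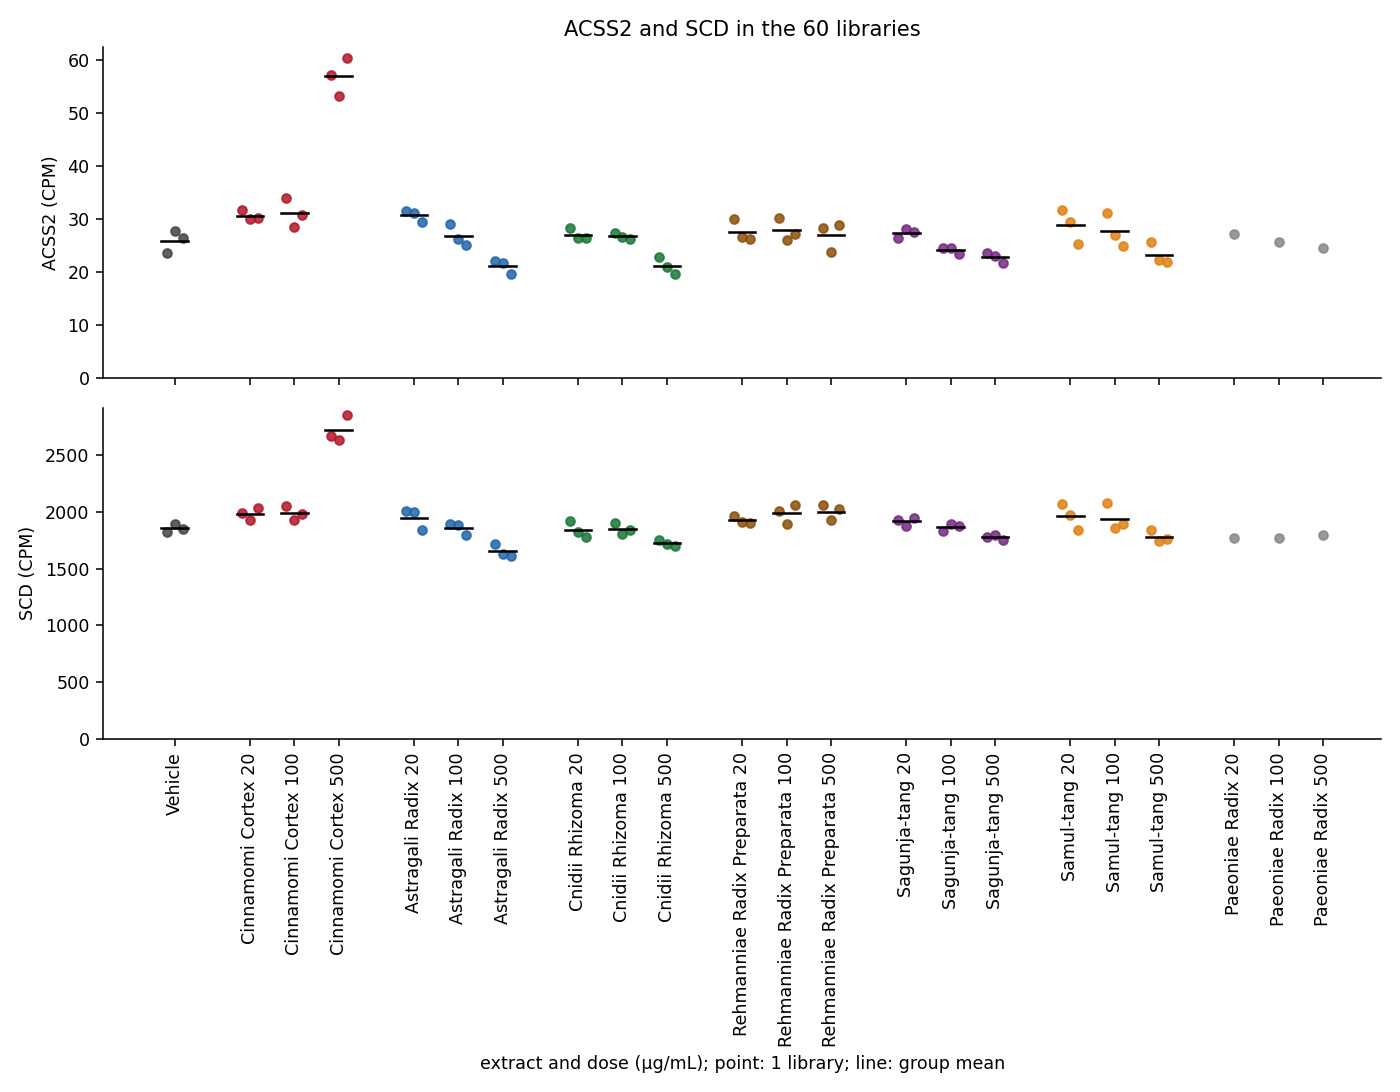
ACSS2 (upper panel) and SCD (lower panel) in CPM in each of the 60 libraries by extract and dose, with lines for means of 3. Cinnamomi Cortex at 500 µg/mL lies apart in both panels, from 53.2 to 60.3 CPM for ACSS2 and from 2639 to 2855 CPM for SCD.

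SCD was the member that followed ACSS2 most closely. It held 1820, 1895 and 1854 CPM in the vehicle and 2670, 2639 and 2855 CPM with Cinnamomi Cortex at 500 µg/mL, a log2 difference of 0.55 (SE 0.04). The top dose of this extract was again apart from all other libraries, whose highest value was 2076 CPM. With Astragali Radix SCD held 2011, 1996 and 1845 CPM at 20 µg/mL and 1721, 1629 and 1608 CPM at 500 µg/mL, without overlap. The lowest group mean of the 19 was again that of Astragali Radix at 500 µg/mL, at 1652 ± 59.9 CPM (SD, n = 3). Over the 19 group means of log2 CPM, SCD correlated with ACSS2 at Pearson r = 0.97, and at 0.90 over the 18 groups without Cinnamomi Cortex at 500 µg/mL.

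The other core enzymes were also higher with Cinnamomi Cortex at 500 µg/mL, by less. ACLY, ATP citrate lyase, held 491.8, 487.2 and 543.0 CPM against 392.2, 394.1 and 362.2 CPM in the vehicle, a log2 difference of 0.41 (SE 0.04). FASN, fatty acid synthase, held 1225, 1184 and 1524 CPM against 913.5, 952.3 and 910.0 CPM, or 0.50 (SE 0.07). Neither gene overlapped with the vehicle, and for FASN replicate 3 stood well above the other two. ACACA, acetyl-CoA carboxylase, held 594.6, 612.7 and 692.9 CPM against 505.7, 516.3 and 510.5 CPM, or 0.31 (SE 0.05). ELOVL6 differed by 0.24 (SE 0.04), with 87.4, 88.6 and 91.5 CPM against 73.0, 74.2 and 80.0 CPM. FADS1, at 5.31, 7.14 and 6.97 CPM against 5.07, 5.35 and 4.97 CPM, overlapped with the vehicle. In all, 6 of the 8 genes had all 3 libraries above all vehicle libraries, and the median log2 difference was 0.45, against 0.00 over all tested genes. Over all tested genes 12.8% lay above in the same way and 12.9% passed the test in either direction. Since these libraries led to the choice of the genes, nothing is read from this count.

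Correlation with ACSS2 over the group means rested more on Cinnamomi Cortex at 500 µg/mL for these genes than for SCD. It was 0.88 for ACLY, 0.78 for FASN, 0.77 for FADS1, 0.60 for ELOVL6 and 0.55 for ACACA over 19 groups. Over the 18 groups without that dose it was 0.50 for ACLY, 0.53 for FASN, 0.66 for FADS1, -0.07 for ELOVL6 and 0.32 for ACACA. All groups were scaled together, and libraries of a set are shared between groups.

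Against Astragali Radix at the same dose, Cinnamomi Cortex at 500 µg/mL had ACSS2 higher by 1.43 (SE 0.08) on the log2 scale, a 2.69-fold level, and SCD by 0.72 (SE 0.04). FASN was higher by 0.50 (SE 0.07), FADS1 by 0.39 (SE 0.12), ACLY by 0.35 (SE 0.04), ACACA by 0.22 (SE 0.05) and ELOVL6 by 0.20 (SE 0.04). For 7 of the 8 genes the 3 Cinnamomi Cortex libraries were all above the 3 of Astragali Radix, with FADS2 the exception. Over all tested genes 11.1% lay above in this way and 10.8% were called in either direction, and nothing is read from the members' count here. Libraries of the same number, which also share a set, differed for ACSS2 by 1.371 in the first set and by 1.298 and 1.618 in the second. Without replicate 2 of Cinnamomi Cortex at 500 µg/mL the ACSS2 difference was 1.48 (SE 0.09) and the SCD difference 0.74 (SE 0.05).

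At the lower doses the extracts were tested against each other, since these comparisons had not been used to choose the genes. At 100 µg/mL none of the 8 genes was called by edgeR's quasi-likelihood test, where 0.0673% of all genes were, although 3 had an unadjusted p under 0.05. DESeq2 also called none. ACSS2 was higher with Cinnamomi Cortex by 0.21 (SE 0.08, adjusted p = 0.86), SCD by 0.10 (SE 0.04, adjusted p = 0.91) and ACLY by 0.09 (SE 0.04, adjusted p = 0.91). At 20 µg/mL none was called either, as for 0.0% of all genes, none had an unadjusted p under 0.05 and DESeq2 called none. There ACSS2 differed by -0.005 (SE 0.08) and SCD by 0.03 (SE 0.04). From 20 to 100 µg/mL no member was called by edgeR or DESeq2 in either extract. ACSS2 was at 0.02 (SE 0.08, adjusted p = 0.98) with Cinnamomi Cortex, where 0.00611% of genes were called, and at -0.20 (SE 0.08, adjusted p = 1) with Astragali Radix, where 0.0% were. The unadjusted p was under 0.05 for 0 members in the first and 1 in the second. The difference of these 2 steps was 0.22 (SE 0.12, adjusted p = 1) for ACSS2, with 0 members called by either tool, 0 under an unadjusted p of 0.05, and 0.0% of all genes called.

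**Figure D3:**
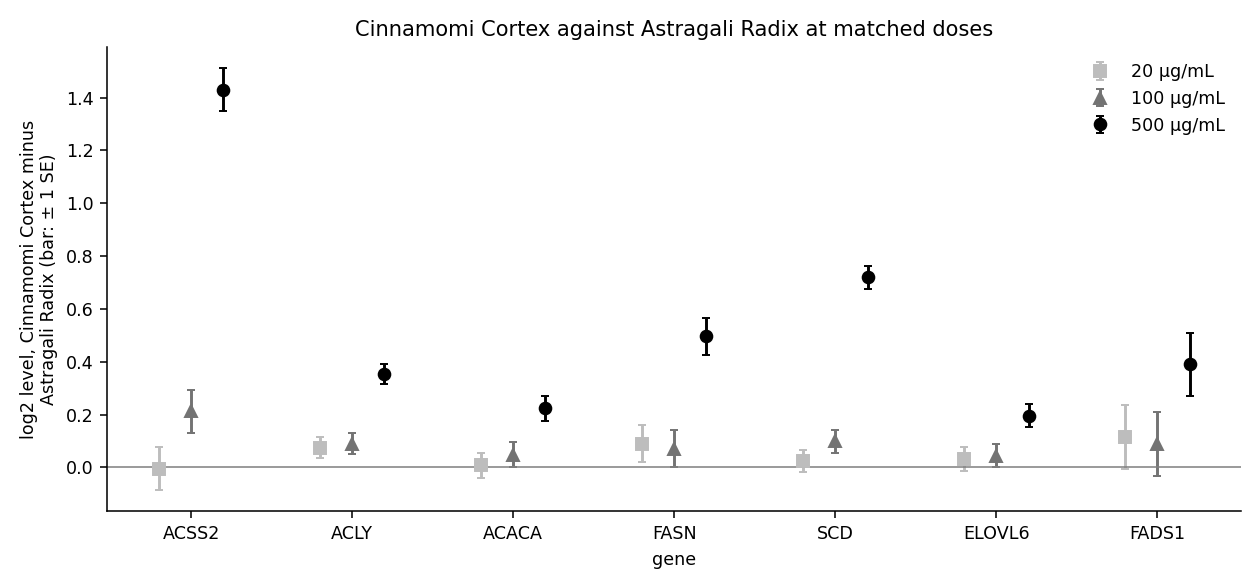
Log2 difference of Cinnamomi Cortex minus Astragali Radix for 7 genes at 20, 100 and 500 µg/mL, with bars of 1 SE. At 500 µg/mL all 7 lie above 0, led by ACSS2 at 1.43, while none was called by edgeR at 100 or 20 µg/mL.

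Between 20 and 500 µg/mL ACSS2 was called, as lower, in 1 of the 4 extracts where this was tested. Its values in Samul-tang and Sagunja-tang, given below, were also negative and not called. The extracts were not tested against each other for this step. With Cnidii Rhizoma ACSS2 fell by 0.35 on the log2 scale (SE 0.08, adjusted p = 0.03), with the 3 libraries at 500 µg/mL all below the 3 at 20 µg/mL, where 0.428% of all genes were called. Libraries of the same number, all first set, differed by -0.31, -0.34 and -0.43. SCD with Cnidii Rhizoma was at -0.10 (SE 0.04, adjusted p = 0.59). The values of Astragali Radix, which were not tested, were -0.54 (SE 0.08) for ACSS2 and -0.24 (SE 0.04) for SCD, each without overlap between the doses. FASN was at -0.14 (SE 0.07) there and ACLY at -0.02 (SE 0.04). Libraries of the same number differed for ACSS2 in Astragali Radix by -0.52 in the first set and by -0.53 and -0.58 in the second. Over all genes 0.0734%, 12 in number, were called in that comparison. That number was not stable. It was 0 to 5 without single libraries of the step and 1 with Cinnamomi Cortex and Astragali Radix fitted alone. DESeq2 called 19, and edgeR with no filter called 72 of 34269.

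The fall with Cnidii Rhizoma depended on single libraries. It was lost without replicate 2 or 3 at 500 µg/mL or any library at 20 µg/mL, at -0.30 to -0.37 with adjusted p = 0.0709 to 0.302. With the library set as a term it was at -0.35 (adjusted p = 0.015 by edgeR). All libraries of this step belong to the first set, so the term cannot check it.

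In the remaining extracts no member was called between 20 and 500 µg/mL by edgeR without a replicate term or by DESeq2. ACSS2 was at -0.31 (SE 0.08, adjusted p = 0.13) with Samul-tang, -0.27 (SE 0.08, adjusted p = 0.25) with Sagunja-tang and -0.03 (SE 0.08, adjusted p = 0.96) with Rehmanniae Radix Preparata. Of all genes 0.141%, 0.00611% and 0.177% were called, and 2, 2 and 0 members had an unadjusted p under 0.05. SCD was at -0.14 (SE 0.04, adjusted p = 0.30) with Samul-tang and -0.11 (SE 0.04, adjusted p = 0.37) with Sagunja-tang. Both formulae had the 3 SCD libraries at 500 µg/mL below the 3 at 20 µg/mL. The share of all genes that lay below in this way was not counted in any extract, and nothing is read from the separation. The members other than ACSS2 were called in none of the 4 tested extracts, and 1 of 32 values was called in all.

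**Figure D4:**
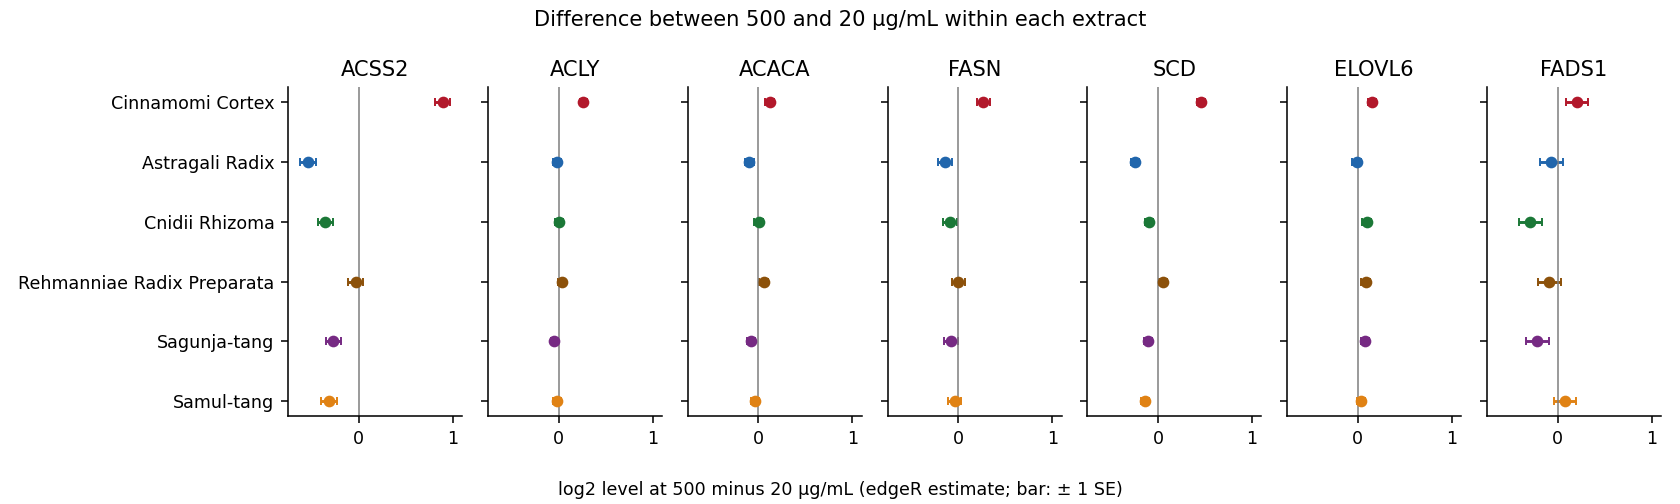
Log2 difference between 500 and 20 µg/mL within each of 6 extracts for 7 genes, with bars of 1 SE. ACSS2 lies at 0.89 with Cinnamomi Cortex and at -0.54 with Astragali Radix, and the other genes spread less.

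Against the vehicle, 16 of the 18 treated groups were tested, which gave 128 values for the 8 genes, of which 16 were called, all higher. The share of all genes called in each comparison is given further below. All 16 comparisons share the same 3 vehicle libraries, so their calls are not independent. The same vehicle libraries also belonged to the comparison that chose the genes. ACACA, which makes malonyl-CoA, held 9 of the 16. It rose by 0.17 to 0.26 on the log2 scale in all 6 groups of the formulae and in Cinnamomi Cortex at 100 and 20 µg/mL and Astragali Radix at 20 µg/mL. The libraries of Samul-tang at 100 µg/mL, with the largest of these rises, held 640.5, 590.8 and 598.7 CPM, all above the vehicle's 505.7 to 516.3 CPM (0.26, SE 0.05, adjusted p = 0.00036). FASN rose in Cinnamomi Cortex at 100 µg/mL (0.22, SE 0.07, adjusted p = 0.039), Samul-tang at 100 µg/mL (0.25) and Sagunja-tang at 20 µg/mL (0.22). ACLY rose by 0.15 and 0.14 in Cinnamomi Cortex at 100 and 20 µg/mL and by 0.115 in Samul-tang at 100 µg/mL. SCD, ELOVL6, FADS1 and FADS2 were called in none of the 16. Of the 19 groups ordered from the highest mean, the vehicle was at place 19 for ACACA (510.8 CPM), ACLY (382.8 CPM) and ELOVL6 (75.8 CPM). It was at place 18 for FADS2, 17 for FASN, 14 for ACSS2 and FADS1 and 13 for SCD. How far a low vehicle level gave these calls was not tested.

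ACSS2 rose with Cinnamomi Cortex at 100 µg/mL by 0.26 (SE 0.08, adjusted p = 0.041). With Cnidii Rhizoma at 500 µg/mL it was at -0.29 (SE 0.08, adjusted p = 0.072), with all 3 libraries below the vehicle. At 20 µg/mL it was at 0.25 with both Cinnamomi Cortex (SE 0.08, adjusted p = 0.11) and Astragali Radix (SE 0.08, adjusted p = 0.12). The untested values of Astragali Radix at 500 µg/mL were -0.29 (SE 0.08) for ACSS2 and -0.17 (SE 0.04) for SCD, each with all 3 libraries below the vehicle, where 3.58% of all genes were called.

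The counts of called members are given here by extract beside the share of all genes, and no difference between extracts is read from them. The vehicle libraries also belonged to the comparison that chose the genes. An excess of called members over the share of all genes is therefore no independent result. Cinnamomi Cortex at 100 µg/mL had 4 of 8 members called, all higher, where 8.08% of all genes were called, and at 20 µg/mL 2 of 8, where 1.71% were. Astragali Radix had 1 higher at 20 µg/mL (1.39%). The formulae had 1 to 3 members called where 11% to 21.9% of genes were: for Sagunja-tang 1, 1 and 2 at 500, 100 and 20 µg/mL (20.2%, 16.6% and 18.5%) and for Samul-tang 1, 3 and 1 (18.5%, 21.9% and 11%). No member was called by edgeR in Astragali Radix at 100 µg/mL (2.51%), Cnidii Rhizoma at 500, 100 and 20 µg/mL (1.48%, 0.147% and 0.293%) or Rehmanniae Radix Preparata at these doses (0.636%, 0.208% and 0.434%). Members with an unadjusted p under 0.05 numbered 2, then 3, 0 and 0, then 3, 3 and 0 in these groups, and DESeq2 called 1, in Cnidii Rhizoma at 500 µg/mL. The median log2 difference of the 8 genes was 0.17 in Cinnamomi Cortex at 100 µg/mL, 0.15 at 20 µg/mL, 0.02 in Astragali Radix at 500 µg/mL and 0.07 to 0.13 in the formulae, against -0.003 to 0.005 over all tested genes.

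Fewer values were called against the vehicle with the library set as a term or without single vehicle libraries. With the term, 2 of 128 values were called: ACSS2 higher with Cinnamomi Cortex at 100 µg/mL (0.33, SE 0.09, adjusted p = 0.033) and lower with Cnidii Rhizoma at 500 µg/mL (-0.29, SE 0.08, adjusted p = 0.043). The Cnidii Rhizoma and vehicle libraries are all of the first set, so the term cannot check that lower value. The 9 ACACA differences lay at 0.05 to 0.14 with the term. The 3 ACLY differences, no longer called, were nearly as large as without it, at 0.13, 0.13 and 0.09 (SE 0.041 to 0.045). Leaving out vehicle replicate 3 left 7 calls and leaving out vehicle replicate 1 left 10. The 6 ACACA calls of the formulae held whichever of their 6 libraries was left out, and the other 10 were each lost without at least 1 library. Leaving out 1 library keeps the formulae and the vehicle in different sets. It therefore cannot tell those 6 calls apart from a difference between the sets, and with the term none of them was called. The rise in ACSS2 with Cinnamomi Cortex at 100 µg/mL was lost without vehicle replicate 1 or 3 or any of its own libraries, at 0.20 to 0.32 (adjusted p = 0.0714 to 0.182). Beside these values, mitochondrially encoded mRNAs took 8.71% to 11.4% of counts in the vehicle and 5.84% to 7.55% in the formulae, and their part in the result was not tested.

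**Figure D5:**
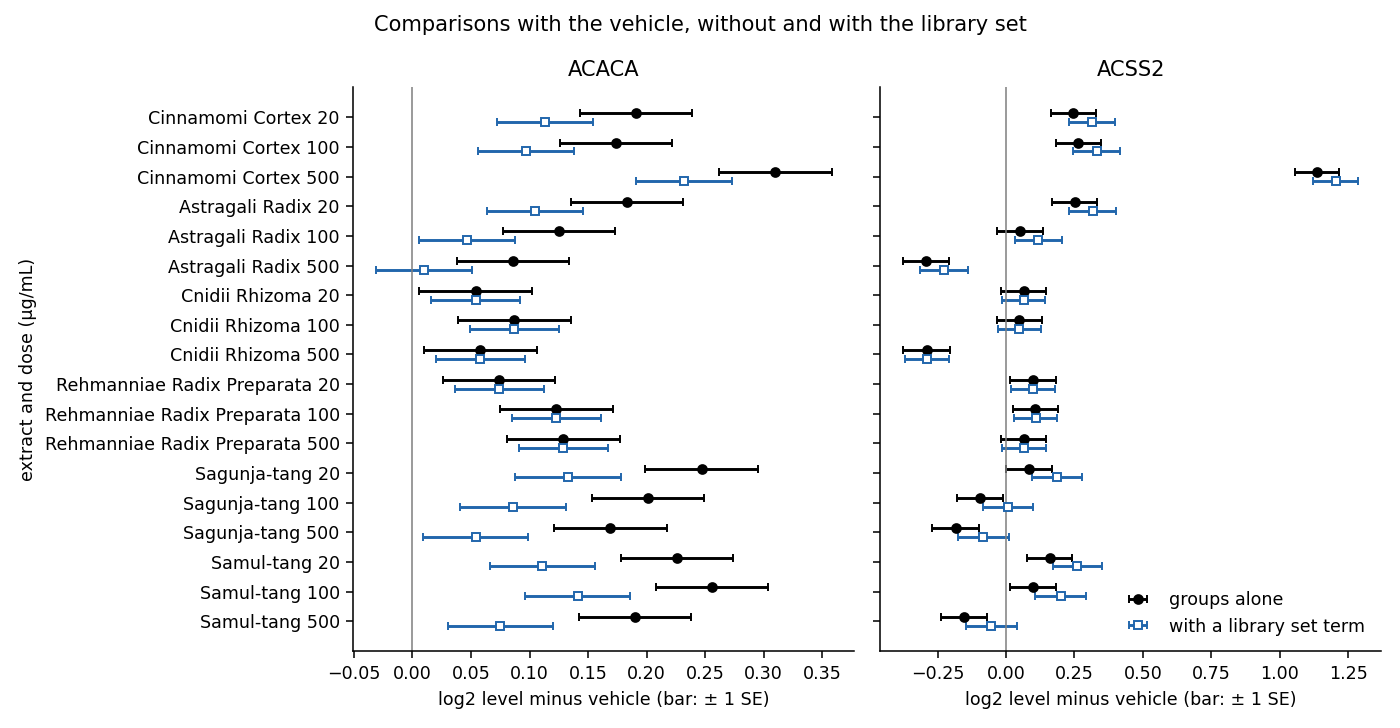
Log2 difference of ACACA (left) and ACSS2 (right) from the vehicle in 18 treated groups, fitted by group alone (filled circles) and with a library set term (open squares), with bars of 1 SE. The term lowers ACACA in the formulae and in Cinnamomi Cortex and Astragali Radix, and leaves ACSS2 with Cinnamomi Cortex at 500 µg/mL at 1.21 against 1.14.

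Genes around the pathway were taken from 4 lists, which had been drawn up with earlier results of these data known. In the comparisons of Cinnamomi Cortex at 500 µg/mL their counts are descriptions, as the libraries are those of the choice. Of 19 tested enzymes of fatty acid supply, elongation and desaturation beside the members, 3 passed edgeR's threshold against the vehicle, all higher, beside 12.9% of all genes. They were SLC25A1, the mitochondrial citrate carrier, at 0.58 (SE 0.07) with 259.3 ± 29.2 against 173.6 ± 4.83 CPM (SD, n = 3), ELOVL1 at 0.26 (SE 0.04) and HSD17B12 at 0.22 (SE 0.05), 2 genes of fatty acid elongation. The median of this list was 0.05. Of 20 tested genes of acyl-CoA, triglyceride and lipid droplet metabolism 7 passed, all higher, beside the same 12.9%, led by ACSL1, an acyl-CoA synthetase, at 0.70 (SE 0.08), and LPIN1, a phosphatidate phosphatase, at 0.60 (SE 0.14). The lipid droplet coat gene PLIN2 was at 0.36 (SE 0.09), with 7.43 ± 0.527 against 5.79 ± 0.501 CPM. The median of this list was 0.13.

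The genes of cholesterol synthesis and uptake stood higher almost as a whole with Cinnamomi Cortex at 500 µg/mL. Of 23 tested, 21 passed the threshold against the vehicle, all higher, beside 12.9% of all genes, and the 23 ranged from 0.15 to 1.14 with a median of 0.54. LSS, lanosterol synthase, was at 0.80 (SE 0.06), with 183.2 ± 18.5 against 104.8 ± 4.12 CPM (SD, n = 3). MVD was at 0.77 (SE 0.08) and MVK at 0.72 (SE 0.09), both enzymes of the mevalonate pathway. Against Astragali Radix at 500 µg/mL 22 of 23 passed, all higher, beside 10.8% of all genes. The median of that comparison was 0.58. The list was drawn up with earlier results known and the libraries are those of the choice, so both counts are descriptions only.

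Of the 15 genes of sterol sensing and transcriptional control 5 passed against the vehicle, all higher, with a median of 0.10, again beside 12.9% of all genes. INSIG1, which retains the SREBP precursors in the endoplasmic reticulum, was at 0.52 (SE 0.10), with 282.8 ± 22.9 against 196.6 ± 11.3 CPM. SREBF2 was at 0.20 (SE 0.04), and SCAP, the escort protein of the precursors, at 0.20 (SE 0.05). NR1H2, a liver X receptor, was also at 0.20 (SE 0.06). SREBF1 stood at 0.06 (SE 0.04) against the vehicle and -0.14 (SE 0.04) against 20 µg/mL of the same extract, with 138.6 ± 11.3, 132.9 ± 4.43 and 153.0 ± 10.1 CPM in turn. MLXIPL, a glucose-responsive regulator of lipogenesis, was low, at 0.395 ± 0.0736 against 0.613 ± 0.282 CPM. Against Astragali Radix at 500 µg/mL INSIG1 was at 0.80 (SE 0.10) and USF1, a transcription factor of the pathway, at -0.21 (SE 0.06).

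Other comparisons were tested on these lists. The lists were drawn up with earlier results known, and the vehicle libraries belonged to the comparison that chose the members. An excess of called list genes over the share of all genes is therefore no independent result. With Cinnamomi Cortex at 100 µg/mL against the vehicle, where 8.08% of all genes were called, 6 of 23 cholesterol genes rose and none fell. They included MVD at 0.48 (SE 0.08, adjusted p = 0.00042) and TM7SF2, a sterol reductase, at 0.37 (SE 0.07, adjusted p = 0.001). SLC25A1 rose by 0.32 (SE 0.07, adjusted p = 0.0046) as the 1 called of 19 supply and elongation genes. SREBF1 rose by 0.16 (SE 0.04, adjusted p = 0.021) and USF1 by 0.25 (SE 0.06, adjusted p = 0.0062) as the 2 called of 15 control genes. DGAT1, which makes triglycerides, rose by 0.36 (SE 0.07, adjusted p = 0.00059) and ACSL1 by 0.29 (SE 0.08, adjusted p = 0.017) as the 2 called of 20. All vehicle libraries are of the first set, and most of this group's are of the second. Calls on the lists were not checked with the library set as a term or without single libraries. Of the members called in this comparison, only ACSS2 stayed called with that term. With Astragali Radix at 500 µg/mL, given as a description, DGAT1 was at 0.22 (SE 0.07) and USF1 at 0.28 (SE 0.06) against the vehicle. Between 20 and 500 µg/mL of Astragali Radix edgeR called 0 of 77 genes of the 4 lists, DESeq2 called 0, and 12 had an unadjusted p under 0.05. The median of the cholesterol list was -0.14 there, from -0.31 to 0.11, against 0.00 over all tested genes. In Cnidii Rhizoma the matching step called 1 of the 77, GPAT3, which rose by 0.41 (SE 0.10, adjusted p = 0.049).

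The 5 genes whose group means were most like those of ACSS2 among 11150 genes of sufficient level were NEU1, SCD, LPIN1, HMGCS1 and ALDOC. Likeness was Pearson r of log2 CPM over the 19 groups, given as a description. NEU1, a lysosomal sialidase, had r = 0.98, with 75.5 ± 2.98 CPM in Cinnamomi Cortex at 500 µg/mL, 55.7 ± 1.91 in the vehicle and 52.4 ± 0.398 in Astragali Radix at 500 µg/mL (SD, n = 3). LPIN1 had r = 0.96, with 50.5 ± 4.28, 33.3 ± 2.76 and 27.8 ± 2.96 CPM in these groups. HMGCS1, an early enzyme of the mevalonate pathway, had r = 0.96, with 405.0 ± 27.9, 274.5 ± 35.1 and 244.7 ± 25.8 CPM. ALDOC, a glycolytic aldolase, had r = 0.93, with 32.9 ± 2.33, 19.1 ± 0.740 and 17.7 ± 0.626 CPM. Over the 18 groups without Cinnamomi Cortex at 500 µg/mL r was 0.92 for NEU1, 0.86 for LPIN1, 0.85 for HMGCS1 and 0.73 for ALDOC, so that the order of the 5 was the same.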

How the data were processed

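RNA from 60 libraries of HT29 cells was sequenced as paired reads from a directional library kit, per the labels' protocols. The authors deposited 1 table of values per gene, read here to be estimated counts since some are not whole and the submitters' processing notes name RSEM. The submitters' processing notes list RSEM 1.3.3, STAR 2.7.3a and the build GRCh38, with no role given, besides Trim Galore 0.6.5 and FastQC 0.11.9. No strand setting is given there. Of 273 columns, 213 matched no sample described here and were not used. Expected counts (8.8% of values not whole) were rounded. Symbols came from a gene name table for 56558 IDs and from GENCODE release 29 for 497, and 3620 had none.

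Groups followed the labels. edgeR 4.0.16 (R 4.3.3, limma 3.58.1) fitted group means to the 57 libraries of 19 groups after filtering with filterByExpr (minimum count 10) and TMM scaling, with the quasi-likelihood test and Benjamini-Hochberg adjustment within each comparison over 16356 genes. A call is an adjusted p under 0.05. Of 30 comparisons fitted, 25 were tested on the members. Tests of Astragali Radix at 500 µg/mL against the vehicle and against 20 µg/mL had been planned and are not reported for the members, since these libraries belong to the contrast behind the choice. SE is the log2 difference divided by the square root of F. CPM used TMM factors (0.938 to 1.043), and RPKM the merged exon length. Alternatives were RLE size factors, DESeq2 1.42.0, no filter, a library set term, a replicate block and leaving out each library. Cinnamomi Cortex and Astragali Radix were also fitted alone, without and with a replicate block. The method was tested on simulated data drawn for Cnidii Rhizoma at 500 against 20 µg/mL: of 16073 genes, 91% of 100 changed by 0.5 and 100% of 100 changed by 1 on the log2 scale were recovered, with 6 false calls. The changed genes were drawn from those with a mean above 100 counts, and all groups had the vehicle means with no set difference. Recovery of changes under 0.5, such as the members' calls, or of genes with low counts was not measured. Total counts give the depth of each library in the report, and floors and intervals cover counting error only.

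The members and gene lists were chosen with earlier results of these data known. Genes were named by rule: all members, up to 4 called genes of each list with the largest difference in a comparison, the 5 genes most like ACSS2 (mean log2 CPM of at least 1), and SREBF1, INSIG1 and MLXIPL at any value. Some genes that the rule names are not reported here. Replicate numbers were checked for pairing by the correlation of same-numbered libraries' deviations from their group means. In 1 of 30 pairs of groups, Cinnamomi Cortex and Astragali Radix at 100 µg/mL, all 3 correlations exceeded 0.1 (0.25, 0.116 and 0.153). The 57 pairs of replicates differed by more than sampling noise, with chi-square per degree of freedom of 2.43 to 26.99. Figures were drawn with matplotlib 3.10.9.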

Additional observations from a re-analysis of the deposited data

Results flagged for a closer look

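For 3 genes the libraries at 500 µg/mL lay above those at 20 µg/mL in Cinnamomi Cortex and below them in another extract, without overlap. In Cinnamomi Cortex, whose libraries at 500 µg/mL led to the choice of the genes, 10.8% of all tested genes lay above in this way. The share that also lay below in another extract was not counted, and nothing is read from the number of genes. The differences between extracts were not tested. Of the lower values, that of ACSS2 in Cnidii Rhizoma passed the test of dose, those of Astragali Radix were not tested, and the others did not pass. The dose difference of ACSS2 in Cinnamomi Cortex exceeded that in Astragali Radix by 1.43 on the log2 scale, that in Cnidii Rhizoma by 1.24 and that in Sagunja-tang by 1.16. For SCD the gap was 0.70 to Astragali Radix, 0.55 to Cnidii Rhizoma, 0.57 to Sagunja-tang and 0.60 to Samul-tang. For FASN it was 0.41 to Astragali Radix.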

How the results depend on the processing

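No result reversed under the alternatives run. Members called against the vehicle numbered 16 in the main fit. The total was 2 with a library set term, 16 with RLE size factors, 21 with no filter and 19 with DESeq2. It was 7 to 17 when single libraries were left out (7 without vehicle replicate 3, 10 without vehicle replicate 1). These totals mix kept and new calls. Of the 16 themselves, 1 was kept with the library set term and 13 with no filter, where all 3 ACLY calls were lost. RLE size factors and DESeq2 each kept all 16. The 1 call between 500 and 20 µg/mL, ACSS2 in Cnidii Rhizoma, numbered 1 with RLE size factors, a library set term or DESeq2 and 3 with no filter. It numbered 0 to 2 when single libraries were left out: 0 without Cnidii Rhizoma replicate 2 or 3 at 500 µg/mL or any of its libraries at 20 µg/mL, and 2 without Samul-tang replicate 3 at 20 µg/mL. There was no other library whose loss changed this number, and the ACSS2 value in Cnidii Rhizoma ranged from -0.415 to -0.300. In Astragali Radix the untested differences between 500 and 20 µg/mL ranged without single libraries from -0.577 to -0.494 for ACSS2 and from -0.278 to -0.217 for SCD. The causes were not tested.

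With the replicate number as a block there were 24 calls against the vehicle and 2 between 500 and 20 µg/mL, the added one being ACSS2 in Samul-tang (-0.31, adjusted p = 0.022 by edgeR). A block by sample code, chosen after seeing the data, gave 3, with ACSS2 in Samul-tang (adjusted p = 0.0075) and in Sagunja-tang (-0.27, adjusted p = 0.04). The numbers of these groups do not pair their libraries by the check used. In the 1 pair of groups whose numbers paired, the block changed no call.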
